A study of Cyanidioschyzon merolae strain 10D with 12 samples.

Results

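Most protein genes of the cytosolic ribosome were followed through a fall and a return of CO2 in a red alga of hot acidic springs, the unicellular Cyanidioschyzon merolae 10D. They were taken from the description of each gene's best Arabidopsis match, as every nuclear gene whose description holds the words 40S ribosomal or 60S ribosomal. This gave 58 of 4970 genes, 24 for the 40S (small) subunit and 34 for the 60S (large) subunit. The words miss some proteins of the same ribosome, among them the stalk proteins, and 84 genes in all have a eukaryotic ribosomal category in the authors' deposited table. Statements on a subunit below are about the 58 genes unless others are named. The alga was grown in batch with 5% CO2 (high CO2, HC) and sampled first in that state, which gave the group HC 0 h. The supply was then lowered to 0.04% CO2 (low CO2, LC), with samples after 3 h (LC 3 h) and 24 h (LC 24 h). It was finally returned to 5% CO2, with a last sample 24 h later (HC 24 h). All 12 libraries were of wild-type cells at 30 °C in light of 90 µmol photons per square metre and second, 3 in each group, and the labels call them biological replicates. There was no group that stayed at high CO2 throughout. Time in culture and CO2 therefore cannot be told apart in any comparison with HC 0 h, nor in that of HC 24 h with LC 24 h. LC 24 h and LC 3 h likewise differ in time in culture as well as in time at low CO2.

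The cytosolic ribosome translates the messenger RNAs of nuclear genes. Its small subunit binds the messenger and reads the codons, and its large subunit joins the amino acids and holds the tunnel through which the new chain leaves. In eukaryotes studied in detail, such as yeast, the genes for its proteins are expressed together and at high levels in growing cells, and they are turned down when nutrients run short. Ribosomes of plastids and mitochondria have their own sets of proteins and are not included here.

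Library totals were 9671514 to 11367648 estimated reads at HC 0 h, 9887991 to 12063877 at LC 3 h, 13366144 to 22881427 at LC 24 h and 24296458 to 28346661 at HC 24 h, so depth differed between the groups. All 58 genes carried a eukaryotic cytosolic category in the authors' deposited table, and no match had an E-value above 4e-11. Differences were tested on counts for 4865 genes with enough reads, and 57 of the 58 genes were among them, 23 of the 40S and 34 of the 60S subunit. The gene left out, CMI067C (S29, a zinc-binding protein of the small-subunit head), had at most 1.28 TPM and was listed at 0 in every low-CO2 library. TPM is a transcript level corrected for gene length and library size. Levels in the text are TPM, whereas changes are log2 differences fitted to counts, given ± SE. A gene is called lower or higher where the Benjamini-Hochberg adjusted p of edgeR's quasi-likelihood test was under 0.05. The scale of TPM itself moved between groups. The median log2 TPM change of all genes was -0.13 at LC 3 h, 0.11 at LC 24 h and -0.08 at HC 24 h against HC 0 h, -0.18 at HC 24 h against LC 24 h and 0.19 at LC 24 h against LC 3 h. Relative to those medians the ribosomal genes' median TPM changes were -0.49, -1.35, -0.37, 0.98 and -0.87. The count-based changes relative to their own medians were the same to 2 decimals. TPM derive from the same counts, so this match was nearly fixed in advance and is no independent check.

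The ribosomal genes together took a large share of all transcripts, and that share was lowest after a day of low CO2. It was 5.71% to 6.01% of TPM at HC 0 h, 3.44% to 4.50% at LC 3 h, 2.32% to 2.63% at LC 24 h and 4.14% to 4.70% at HC 24 h. The 40S genes summed to 25488, 24362 and 25211 TPM at HC 0 h, 18582, 14298 and 15428 at LC 3 h, 9160, 10252 and 10184 at LC 24 h, and 18977, 17948 and 17699 at HC 24 h. The 60S genes summed to 34626, 32709 and 33805 TPM at HC 0 h, 26424, 20094 and 21845 at LC 3 h, 14069, 16091 and 16080 at LC 24 h, and 28069, 25024 and 23742 at HC 24 h. In both subunits every HC 0 h library was above every later one and every LC 24 h library was below all others. LC 3 h and HC 24 h overlapped through LC 3 h replicate 1, which was well above the other 2 libraries of its group. In bulk RNA, fewer cells with these transcripts and less of them per cell cannot be told apart.

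**Figure D1:**
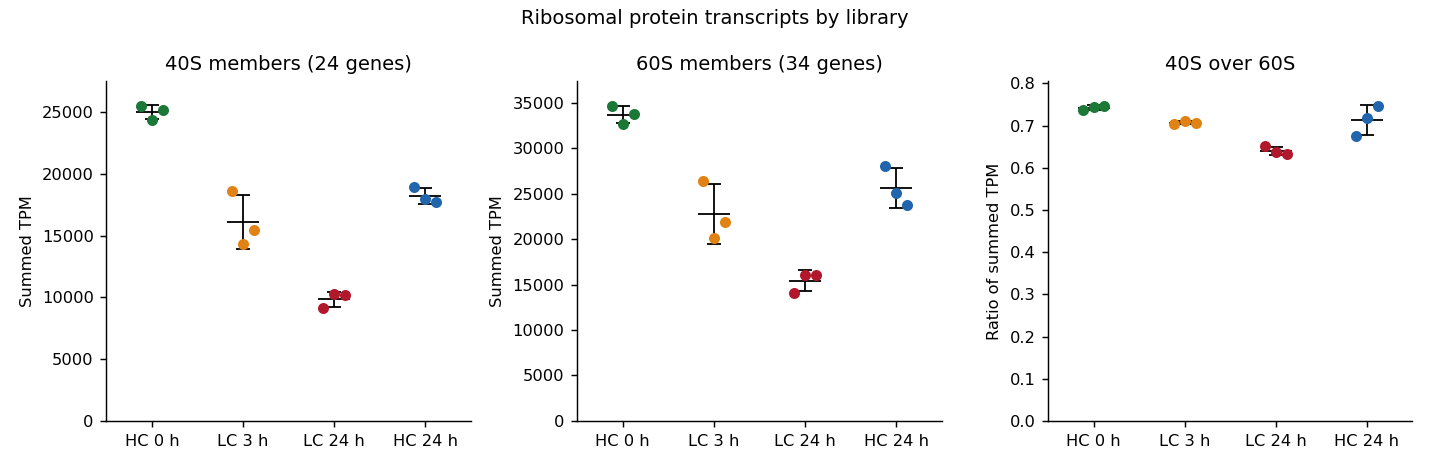
Summed TPM of the 40S genes (left) and 60S genes (middle) and the ratio of the sums (right) in each of the 12 libraries. Coloured points are libraries, and bars are group means ± SD (n = 3); both sums were lowest at LC 24 h (9160 to 10252 and 14069 to 16091 TPM), where the ratio was also lowest.

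Within 3 h of low CO2, 40 of the 57 genes were lower than at HC 0 h and 0 were higher, where 19.3% of all tested genes were lower and 22.1% higher. The median change was -0.47, against 0.02 for all tested genes, and no fitted fall reached 2-fold. Of the 40S genes 19 of 23 fell, and of the 60S genes 21 of 34. The steepest early fall was that of S8 (CMT159C), a protein of the small-subunit body. It had 768, 563 and 612 TPM at LC 3 h, against 1301, 1310 and 1281 TPM at HC 0 h (log2 change -0.86 ± 0.12, edgeR adjusted p = 0.000207). The 2 groups of libraries did not overlap. L7a (CML317C), a large-subunit protein, changed by nearly as much, with 982, 568 and 663 TPM at LC 3 h against 1553, 1418 and 1453 at HC 0 h (-0.86 ± 0.16, edgeR adjusted p = 0.00144). Other genes with much RNA at the start did not pass the test. S19 (CMR148C), a small-subunit head protein needed to mature 18S RNA in yeast and human cells, had 1469, 1303 and 1331 TPM at LC 3 h against 1722, 1721 and 1771 at HC 0 h (-0.20 ± 0.10, edgeR adjusted p = 0.125). L21 (CMR150C) had 1416, 1221 and 1355 TPM at LC 3 h against 1473, 1511 and 1439 at HC 0 h (-0.00 ± 0.10, edgeR adjusted p = 0.983). The TPM of S19 nevertheless did not overlap between the groups. By that measure 53 of the 57 genes were lower in every LC 3 h library, as were 38.2% of all genes with a TPM.

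Calls at 3 h depended on the libraries. Between 30 and 50 genes were called when a library was left out, and 30 were called under every alternative. Without LC 3 h replicate 2, S4 (CMH218C), S17 (CMT402C), S20 (CMG057C) and S24 (CMA114C) were no longer called (edgeR adjusted p = 0.0626 to 0.155). The same held for L14 (CMH065C), L18a (CMO302C), L31 (CMP175C), L36 (CML106C), L38 and L39 (CMQ118C), at edgeR adjusted p = 0.0534 to 0.128. S4, S17, S24, L31, L38 and L39 were also lost without LC 3 h replicate 3 (edgeR adjusted p = 0.0502 to 0.129). L7 (CMO310C), not called here (edgeR adjusted p = 0.0604), was called under 9 of the 21 alternatives. The LC 3 h libraries also stood apart in another measure. Genes that the table gives no length took 1.37% to 6.46% of their counts, against 0.161% to 0.827% in the libraries of the other groups, and the part of this in the changes was not tested.

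After 24 h of low CO2, 55 of the 57 genes were lower than at HC 0 h and 0 were higher, where 30.3% of all tested genes were lower and 32.7% higher. The median change was -1.32, against 0.02 for all genes. Of the 57 genes 45 were called and at least 2-fold lower, as were 401 of all 4865 tested genes. All 23 of the tested 40S genes fell, with changes of -2.12 to -0.95. Of the 34 60S genes 32 fell, and the changes of all 34 ran from -1.99 to -0.06. The 55 calls were made under all 21 alternatives, library by library omissions included. In TPM 55 of the 57 genes were lower in every LC 24 h library than in every HC 0 h library, as were 27.9% of all genes with a TPM.

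**Figure D2:**
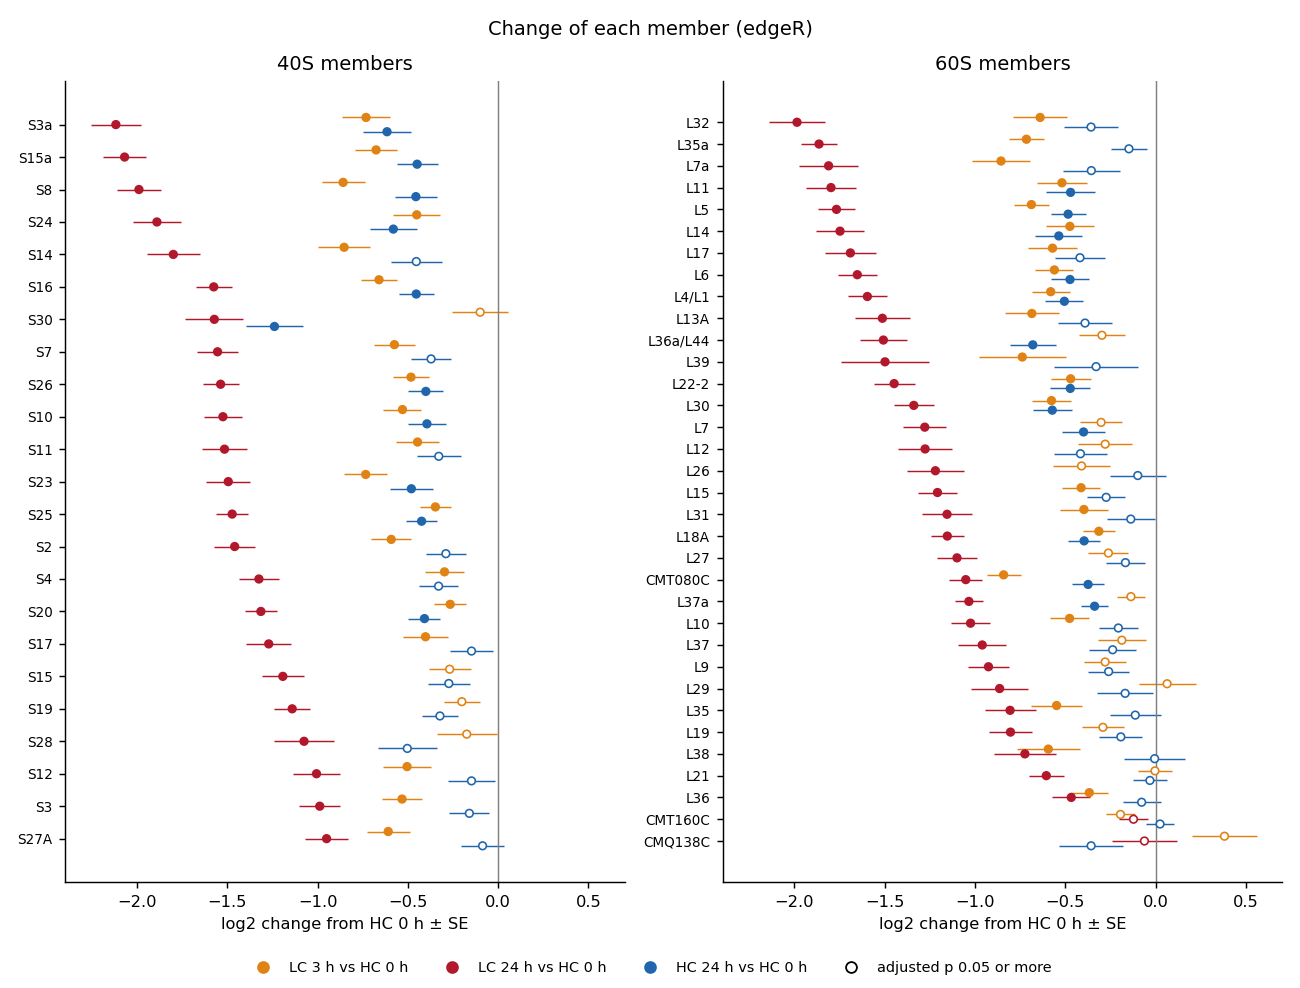
Fitted log2 change ± SE from HC 0 h of each tested 40S gene (left) and 60S gene (right) at LC 3 h, LC 24 h and HC 24 h, ordered by the change at LC 24 h. Filled points passed the edgeR test (adjusted p under 0.05), and the LC 24 h points run from -2.12 (S3a) to -0.06 (CMQ138C).

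Among the 23 tested 40S genes of the set the largest falls were those of S3a, S15a, S8 and S24. S3a (CMS189C), a platform protein beside the site where the messenger leaves, had 321, 380 and 407 TPM at LC 24 h, against 1615, 1403 and 1496 TPM at HC 0 h (-2.12 ± 0.14, edgeR adjusted p = 7.09e-07). S15a (CMI202C), a protein of the body, had 252, 276 and 314 TPM at LC 24 h, against 1125, 1070 and 1118 TPM at HC 0 h (-2.07 ± 0.12, edgeR adjusted p = 3.59e-07). S8 had 344, 358 and 343 TPM at LC 24 h (-1.99 ± 0.12 against HC 0 h, edgeR adjusted p = 5.02e-07). The LC 24 h and HC 0 h libraries of each gene did not overlap, and the LC 24 h mean was 24.5% of the HC 0 h mean for S3a, 25.4% for S15a and 26.9% for S8. S24 (CMA114C) changed by -1.89 ± 0.13.

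The smallest falls in the small subunit were those of S27A, S3, S12 and S28. S27A (CMN125C), which the table describes as a ubiquitin extension protein and whose relatives are made as a fusion of ubiquitin with a ribosomal protein of the beak, had 678, 689 and 680 TPM at LC 24 h, against 1256, 1181 and 1273 TPM at HC 0 h (-0.95 ± 0.12, edgeR adjusted p = 5.42e-05). S3 (CMN148C), a protein at the entry of the messenger channel, had 732, 750 and 711 TPM at LC 24 h, against 1361, 1403 and 1315 TPM at HC 0 h (-0.99 ± 0.11, edgeR adjusted p = 2.59e-05). Even these groups did not overlap. S12 (CMK118C) changed by -1.01 ± 0.13 and S28 (CMO024C), a protein of the exit side, by -1.07 ± 0.17. S28 was the only gene of the set with counts that were not whole numbers, in all 12 libraries, as happens when reads are divided between genes, and its level is therefore uncertain. S19 and S2 (CMA082C, at the entry of the messenger channel) had the highest small-subunit levels at the start. S19 stood at 839 ± 86.4 TPM at LC 24 h, against 1738 ± 28.5 TPM at HC 0 h, and S2 at 670 ± 58.6 TPM at LC 24 h, against 1730 ± 42.8 TPM at HC 0 h (SD, n = 3 each). S2 changed by -1.46 ± 0.11 (edgeR adjusted p = 1.98e-06) and S19 by -1.14 ± 0.10 (edgeR adjusted p = 4.05e-06).

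Among the 34 60S genes of the set the largest falls were those of L32, L35a, L7a and L11. L32 (CMJ289C) had 278, 251 and 251 TPM at LC 24 h, against 1017, 935 and 943 TPM at HC 0 h (-1.99 ± 0.16, edgeR adjusted p = 1.99e-06). L35a (CML304C) had 212, 210 and 215 TPM at LC 24 h, against 741, 736 and 699 TPM at HC 0 h (-1.86 ± 0.10, edgeR adjusted p = 2.50e-07). L7a changed by -1.81 ± 0.16, to 448 ± 20.0 TPM at LC 24 h against 1475 ± 70.1 TPM at HC 0 h (SD, n = 3). L11 (CML196C) and L5 (CMH071C) bind 5S RNA as a pair and enter the ribosome together. L11 had 295, 357 and 375 TPM at LC 24 h, against 1135, 1085 and 1132 TPM at HC 0 h (-1.80 ± 0.14, edgeR adjusted p = 1.99e-06). L5 had 346, 390 and 425 TPM at LC 24 h, against 1217, 1201 and 1294 TPM at HC 0 h (-1.77 ± 0.10, edgeR adjusted p = 3.22e-07). The pair differed from each other by less than their SE. The 3 most abundant large-subunit transcripts at the start were L10 (CMJ109C, near the site of peptide transfer), L7 and L17 (CMQ463C, in the tunnel wall). L10 had 865, 993 and 979 TPM at LC 24 h, against 1814, 1831 and 1773 TPM at HC 0 h (-1.02 ± 0.11, edgeR adjusted p = 1.47e-05). L7 changed by -1.28 ± 0.12 and L17 by -1.69 ± 0.14.

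The genes were also grouped by place in the ribosome, with groups drawn up after the values were seen. At LC 24 h the proteins of the tunnel wall (L4/L1, L17 and L39) changed by -1.69 to -1.50. Those of the tunnel exit (L19, L26, L31 and L35) changed by -1.22 to -0.80. The 5S RNA pair, L11 and L5, changed by -1.80 and -1.77. In the small subunit the proteins of the messenger exit and platform (S3a, S14, S26 and S28) changed by -2.12 to -1.07. Those of the messenger entry (S2, S3 and S30) changed by -1.57 to -0.99 and those of the beak (S10, S12 and S27A) by -1.52 to -0.95. The small-subunit ranges overlapped one another, whereas those of the large-subunit groups did not. With groups drawn up from known values, that separation was not tested.

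A few large-subunit genes fell little or were not called at LC 24 h. L36 (CML106C) had 721, 827 and 856 TPM at LC 24 h, against 1058, 1008 and 1055 TPM at HC 0 h (-0.47 ± 0.11, edgeR adjusted p = 0.00282). L21 had 979, 1091 and 1028 TPM at LC 24 h, against 1473, 1511 and 1439 TPM at HC 0 h (-0.61 ± 0.10, edgeR adjusted p = 0.000270). L21 was therefore close to its starting level at 3 h and lower at 24 h. L36 was at 802 ± 71.3 TPM at LC 24 h and 730 ± 45.4 TPM at LC 3 h (SD, n = 3). On counts L36 did not pass the test between these times (-0.10 ± 0.11, edgeR adjusted p = 0.446). CMT160C, described as a putative L24, had 229, 248 and 239 TPM at LC 24 h, against 247, 230 and 255 TPM at HC 0 h (-0.12 ± 0.08, edgeR adjusted p = 0.196). CMQ138C, described as 60S ribosomal protein-related, had 45.4, 39.3 and 44.0 TPM at LC 24 h, against 48.6, 29.9 and 48.0 TPM at HC 0 h (-0.06 ± 0.18, edgeR adjusted p = 0.775). In CMT160C and CMQ138C the groups overlapped. CMQ138C and the other gene described as 60S ribosomal protein-related, CMT080C, had the lowest levels among the genes tested, 42.2 ± 10.6 and 75.4 ± 5.21 TPM at HC 0 h (SD, n = 3). CMT080C fell (-1.05 ± 0.09, edgeR adjusted p = 4.22e-06) and was at 38.8 ± 3.43 TPM at LC 24 h and 38.1 ± 3.40 TPM at LC 3 h (SD, n = 3). On counts it changed by -0.21 ± 0.09 between these times (edgeR adjusted p = 0.0807).

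**Figure D3:**
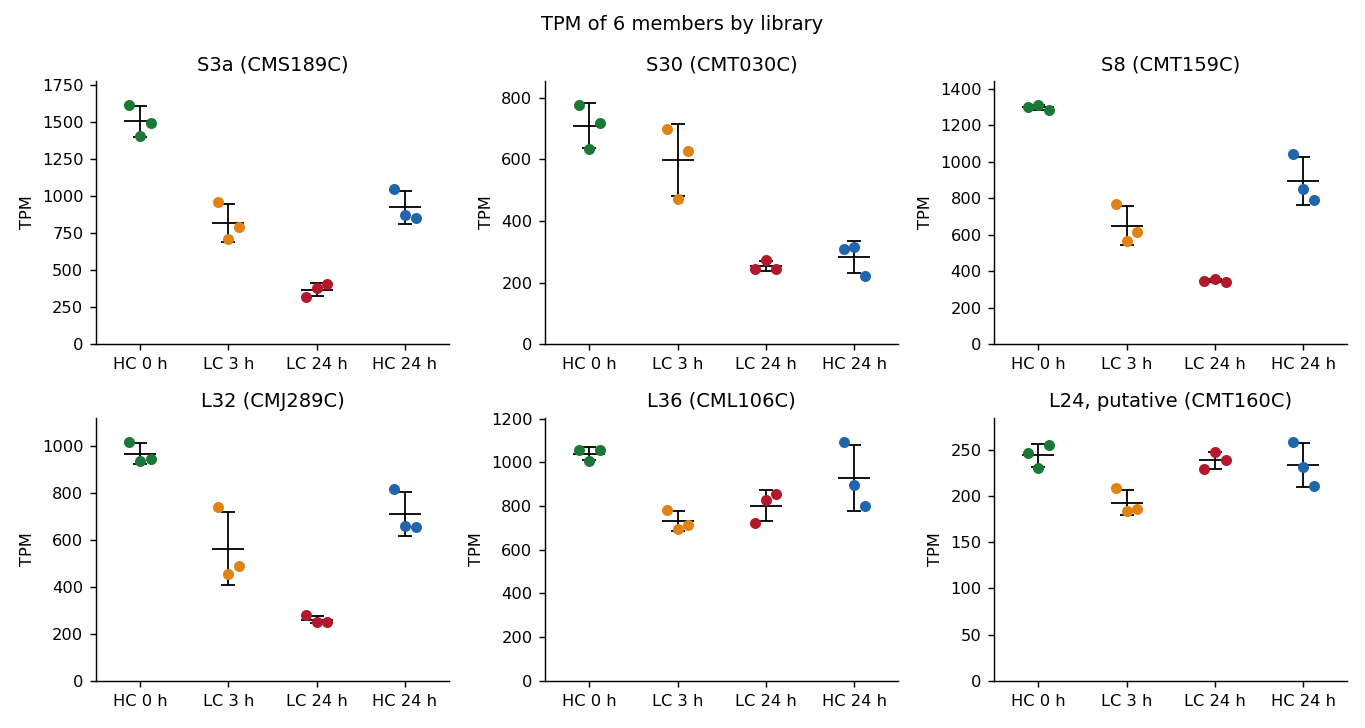
TPM in each library of S3a and L32, with the largest falls at LC 24 h in their subunits, S8, S30, L36 and CMT160C. Points are libraries, bars are group means ± SD (n = 3), and each panel has its own axis from 0; S30 stayed at 223 to 316 TPM at HC 24 h, and CMT160C overlapped between HC 0 h and LC 24 h.

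Within the set chosen by words, transcripts of the small subunit stood lower, relative to their start, than those of the large subunit. At LC 24 h the summed 40S transcripts stood at 39.4% of their HC 0 h level and the 60S transcripts at 45.7%. The ratio of 40S to 60S TPM was 0.633 to 0.651 at LC 24 h, against 0.736 to 0.746 at HC 0 h, so that no library of either group reached the other. At LC 3 h the ratio was 0.703 to 0.712, also below every HC 0 h library. At HC 24 h it was 0.676, 0.717 and 0.745 in replicates 1 to 3 and overlapped HC 0 h through replicate 3. As a log2 difference from HC 0 h the ratio changed by -0.07 at LC 3 h, -0.21 at LC 24 h and -0.06 at HC 24 h. The last value was -0.02 without HC 24 h replicate 1 and -0.09 without HC 24 h replicate 3. The spread between genes of a subunit was wider than the gap between the subunits. The SD of the changes at LC 24 h was 0.34 over the 40S genes and 0.48 over the 60S genes, against medians of -1.49 and -1.21. Genes of both subunits that the words missed are not in these values. Of the missed large-subunit stalk genes, P0 (-1.59), P1 (-1.46) and P2 (-1.67) fell by more than the 60S median and a P0-related gene (-0.87) by less. The ratio over complete subunits was not computed, so the gap holds for the chosen set only. No test was made of a sum or median over these genes, because they were chosen with earlier results known.

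In log2 changes fitted to counts the larger part of the decline followed the 3 h sample. In log2 TPM, whose scale itself moved between groups, the parts were closer. The median there was -0.63 at LC 3 h against HC 0 h and -0.68 at LC 24 h against LC 3 h. Between 3 h and 24 h of low CO2, 51 of the 57 genes fell further and 0 rose, where 29.5% of all tested genes were lower and 23.7% higher, with a median change of -0.92. In summed TPM, 58.8% of the 40S fall and 59.7% of the 60S fall had been reached at 3 h. S30 (CMT030C), a small protein at the messenger entry, had 245, 272 and 245 TPM at LC 24 h, against 700, 470 and 627 TPM at LC 3 h (-1.47 ± 0.16, edgeR adjusted p = 4.69e-05). At LC 3 h it had not passed the test against HC 0 h (-0.10 ± 0.16, edgeR adjusted p = 0.658). S24 changed by -1.44 ± 0.13 between these times. The 6 genes not called were L35, L36, L38, CMT080C, CMT160C and CMQ138C, at -0.44 to 0.07. S27A was called here (-0.34 ± 0.12, edgeR adjusted p = 0.0331) but not without LC 3 h replicate 1 (-0.19, edgeR adjusted p = 0.0541), nor without any 1 of the LC 24 h libraries (adjusted p = 0.0625 to 0.0797). With limma on log2(TPM + 1), CMT160C was higher at LC 24 h than at LC 3 h (0.31, limma adjusted p = 0.00942). On that scale the median of all genes also rose, by 0.19. On counts CMT160C changed by 0.07 ± 0.08 (edgeR adjusted p = 0.463).

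After CO2 had been raised again the transcripts were higher. At HC 24 h 54 of the 57 genes were higher than at LC 24 h and 0 were lower, where 24.7% of all tested genes were higher and 24.9% lower. The median change was 0.98, with 1.12 in the 40S and 0.87 in the 60S genes. L35a had the largest return, with 637, 635 and 577 TPM at HC 24 h against 212, 210 and 215 TPM at LC 24 h (1.72 ± 0.10, edgeR adjusted p = 1.13e-06). L32 had 816, 658 and 654 TPM at HC 24 h, against 278, 251 and 251 TPM at LC 24 h (1.63 ± 0.15, edgeR adjusted p = 1.85e-05). S15a followed with 733, 754 and 794 TPM at HC 24 h, against 252, 276 and 314 TPM at LC 24 h (1.62 ± 0.12, edgeR adjusted p = 3.61e-06). The groups did not overlap in any of these, nor in 53 of the 57 genes, on a scale where 17.8% of all genes were higher in every HC 24 h library. The genes not called were S30, CMT160C and CMQ138C. With limma on log2(TPM + 1), CMQ138C was called lower (-0.46, limma adjusted p = 0.0309). S28 was called (0.57 ± 0.17, edgeR adjusted p = 0.0145) but not without LC 24 h replicate 3 (edgeR adjusted p = 0.0522).

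**Figure D4:**
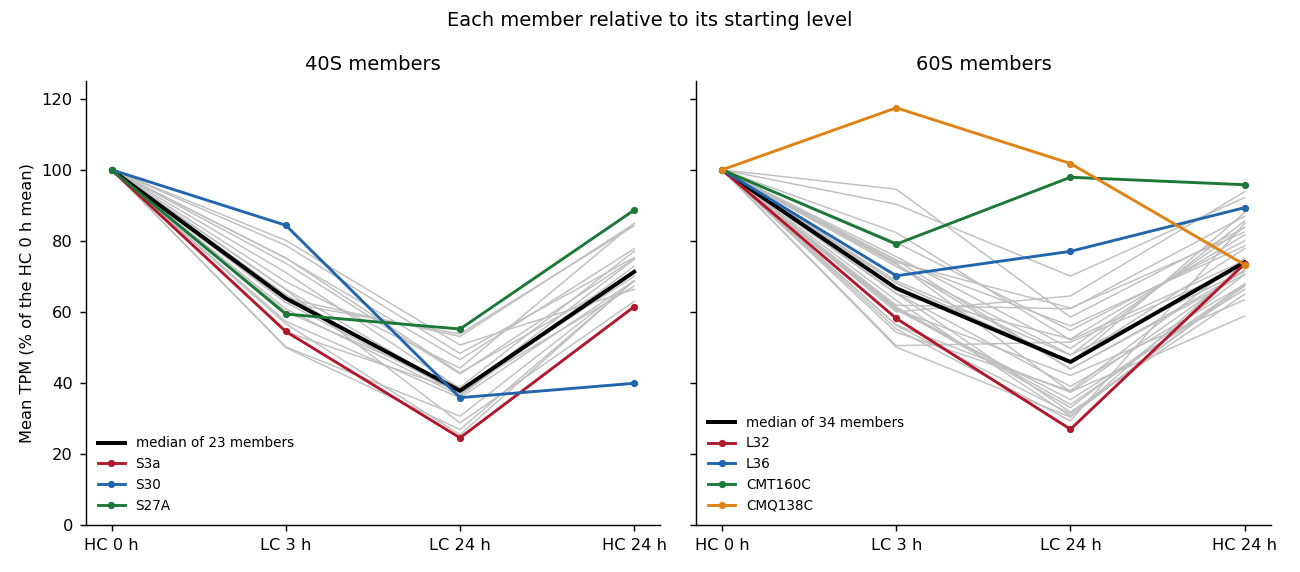
Mean TPM of each tested gene as a percentage of its HC 0 h mean through the 4 groups, 40S on the left and 60S on the right, with the subunit median in black. S30 (blue, left) stood at 39.9% at HC 24 h, the lowest of the 57 genes, whereas CMT160C (green, right) stayed near its starting level at LC 24 h.

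S30 was the exception among the small-subunit genes. It had 310, 316 and 223 TPM at HC 24 h, against 245, 272 and 245 TPM at LC 24 h (0.33 ± 0.16, edgeR adjusted p = 0.101), and the libraries overlapped. It was called higher without HC 24 h replicate 3 (0.49, edgeR adjusted p = 0.0243) or without LC 3 h replicate 2 (0.35, edgeR adjusted p = 0.0436). Against the start it stood lower, with 776, 633 and 719 TPM at HC 0 h (-1.24 ± 0.16, edgeR adjusted p = 0.00236), and this call was made under every alternative. The gene is 190 bases long, and the part of its length in these values was not tested.

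The return was incomplete. Summed 40S transcripts stood at 72.8% of HC 0 h at HC 24 h and 60S transcripts at 76.0%, so that 55.1% and 55.7% of the lost TPM had been regained. Gene by gene, the rise on the log2 scale was a median of 75.1% of the fall over the 55 genes that fell, from 21.2% for S30 to 99.3% for L38. After S30 the lowest were S28 at 53.2% and L36a at 54.9%. Of the 57 genes 23 were called lower at HC 24 h than at HC 0 h and 0 higher, 11 of the 40S and 12 of the 60S genes, where 6.82% of all tested genes were lower and 7.24% higher. The median change was -0.36, against 0.01 for all genes. In 46 of the 57, including all 23 tested 40S genes, each HC 24 h library was below each HC 0 h library, as in 28% of all genes.

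Besides S30, the genes furthest below their start were L36a (CMC044C), S3a, S24, L30 and L14. L36a, which lies near the exit site of the tRNA, had 774, 631 and 599 TPM at HC 24 h, against 1150, 1097 and 1160 TPM at HC 0 h (-0.68 ± 0.13, edgeR adjusted p = 0.00822). S3a had 1051, 873 and 849 TPM at HC 24 h, against 1615, 1403 and 1496 TPM at HC 0 h (-0.62 ± 0.13, edgeR adjusted p = 0.0147). L30 (CMM040C) had 498, 434 and 359 TPM at HC 24 h, against 702, 637 and 697 TPM at HC 0 h (-0.57 ± 0.11, edgeR adjusted p = 0.00847). The libraries of the 2 groups did not overlap in these genes. S24 changed by -0.58 ± 0.13 and L14 by -0.54 ± 0.13. At the other end S27A (-0.09 ± 0.12), L21 (-0.03 ± 0.10), L36 (-0.08 ± 0.11) and L38 (CMJ170C, -0.01 ± 0.17) did not pass the test, with SEs that leave changes of either sign.

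How many genes were still below their start depended on single libraries. Without HC 24 h replicate 2 the count of 23 became 5, without HC 0 h replicate 1 it became 9, without HC 0 h replicate 3 it became 10 and without HC 24 h replicate 3 it became 11. Without LC 3 h replicate 1, a library outside the comparison that enters through the shared fit, it became 38. The 5 genes called under every alternative were S25, S30, L5, L30 and L36a. S3a was lost when HC 24 h replicate 2 or 3 or HC 0 h replicate 1 was left out (edgeR adjusted p = 0.0549 to 0.0671). S24 was lost without HC 0 h replicate 1 or HC 24 h replicate 2 (edgeR adjusted p = 0.0554 and 0.0737). L14 was lost without either of HC 24 h replicates 2 and 3 or HC 0 h replicates 2 and 3 (edgeR adjusted p = 0.0549 to 0.0981). With a library left out the median change of the 57 genes lay between -0.39 and -0.33.

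The authors' deposited table, which gives fold changes of mean TPM plus 1, lists q-values under 0.05 for 9 of the 58 genes at LC 3 h, 53 at LC 24 h and 5 at HC 24 h, all lower than HC 0 h. The same table sorts all genes into expression clusters, and 37 of the 58 genes were in its cluster 6, which holds 14.4% of all genes. Another 19 were in its cluster 5, which holds 9.01% of all genes. CMT160C and CMQ138C were alone in clusters 4 and 8. The 40S and 60S genes were divided alike between clusters 6 and 5, with 16 and 8 of the 40S and 21 and 11 of the 60S genes.

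Position and length were examined as descriptions. The 58 genes lay on 17 chromosomes of assembly ASM9120v1, by their locus tags in RefSeq, and 4 pairs were next to each other in its order. S8 and CMT160C, the most unequal pair, changed by -1.99 and -0.12 at LC 24 h against HC 0 h. S27A and S26 changed by -0.95 and -1.54, L35a and L27 by -1.86 and -1.10, and L10 and L15 by -1.02 and -1.21. The kit does not keep strand, so reads of overlapping neighbours could not be separated. Genes under 300 bases had a median change of -1.03 over 9 members at LC 24 h, against -0.10 over all 97 tested genes of that length. From 300 bases to under 600 the median was -1.39 over 30 members, against -0.07 over 569 genes, and at 600 bases and over it was -1.39 over 18 members, against 0.04 over 4189 genes.

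Other genes of translation were followed through lists made from words in the descriptions. Nuclear genes of the eukaryotic ribosomal category that are described as ribosomal proteins in other words had 14 of 15 tested genes lower at LC 24 h than at HC 0 h, 0 higher and a median change of -1.24, where 30.3% of all tested genes were lower and 32.7% higher. Among them were S18 (CMB004C, -1.96 ± 0.11) and L18 (CMB018C, -1.95 ± 0.10). They also include the stalk, the flexible arm of the large subunit that recruits elongation factors. Its base protein P0 (CMQ445C) changed by -1.59 ± 0.10, P1 (CMI140C) by -1.46 ± 0.12 and P2 (CMG118C) by -1.67 ± 0.11 (edgeR adjusted p = 5.23e-07, 2.47e-06 and 7.88e-07), and a P0-related gene (CMB048C) by -0.87 ± 0.08. A further 9 nuclear genes of that category fit neither wording and were counted after their values were seen. All 9 were lower at LC 24 h than at HC 0 h (median -1.29), with S6 (CMT154C) at -1.71 ± 0.11 and L13 (CMP006C) at -1.68 ± 0.14. Nuclear genes of other categories that the words ribosomal protein caught had 15 of 39 lower and 11 higher, shares near those of all tested genes, with a median of -0.06. They include CMQ306C, described as related to a methyltransferase of a ribosomal protein, and CMN132C, which the table places in ribosome biogenesis. Of the ribosomal protein genes on the plastid genome 2 of 25 tested were lower and 3 higher, and the other genes of that list of 32 did not pass the filter on low counts. On the mitochondrial genome the words caught 7 genes, of which only CMW007C passed that filter. It is described as the gene for apocytochrome b, so no ribosomal protein gene of that genome was tested.

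Genes for the main elongation factors were also lower at LC 24 h. In this comparison 30.3% of all tested genes were lower and 32.7% higher, the background for each list below. The list of elongation and release factors had 14 of 26 genes lower and 6 higher at LC 24 h than at HC 0 h (median -0.20). EF2, which moves the ribosome along the messenger (CMS428C, matched to LOS1), changed by -2.00 ± 0.10 (edgeR adjusted p = 1.93e-07). EF1-alpha (CMH226C), which delivers the aminoacyl-tRNA, changed by -1.80 ± 0.14 (edgeR adjusted p = 1.83e-06). The 2 largest rises in that list were the peptide chain release factor CMQ300C (0.65 ± 0.07) and CME148C (0.44 ± 0.08), matched to HCF109, a release factor of the Arabidopsis chloroplast. Initiation factors had 24 of 40 lower and 6 higher (median -0.41), led by the RNA helicase eIF4A (CMK028C, -1.44 ± 0.12) and eIF2 gamma, which carries the initiator tRNA (CMP304C, -1.42 ± 0.10). The 2 largest rises were those of CMT272C, of the eIF2B family (0.73 ± 0.07, edgeR adjusted p = 1.22e-05), and CMA019C (0.69 ± 0.10), which is described as a transcription factor and was caught by the words. Genes caught by the words for ribosome biogenesis had 16 of 38 lower and 9 higher (median -0.11). Gar1 (CMI184C, -2.32 ± 0.19) and the pseudouridine synthase CBF5 (CMM044C, -1.87 ± 0.18), partners in the particle that modifies ribosomal RNA, fell furthest. The pair with the largest rises, CMQ041C (0.80 ± 0.14) and CML198C (0.56 ± 0.06), are pseudouridine synthases, the first described as acting on tRNA. The authors' deposited table places both under amino acid activation and not under ribosome biogenesis. The list for RNA polymerases I and III held a single gene, the polymerase I initiation factor RRN3 (CMM256C), which changed by -0.45 ± 0.08. TOR (CMR018C), a kinase that promotes ribosome production in yeast and animals, went the other way, higher at LC 24 h than at HC 0 h (1.00 ± 0.19, edgeR adjusted p = 0.000865). Its partner RAPTOR is matched by CMH109C (0.83 ± 0.27, edgeR adjusted p = 0.0209) and CMB135C. All 3 genes of the TOR list were called higher, as were 32.7% of all tested genes. CMB135C changed by 0.43.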

How the data were processed

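RNA of 12 libraries was read in pairs of 100 bases after the TruSeq RNA Sample Prep Kit v2, per the labels' protocols; that kit does not mark strand. The submitters' processing notes name CASAVA 1.8, Bowtie2, RSEM and edgeR without saying what each did. Genome build and annotation: not given in the sources used here. The authors deposited estimated counts per library, of which 94.0% were whole numbers (within 1e-06), and TPM per library, which were recomputed from those counts and the deposited gene lengths to within 3.6e-06. The authors' deposited table also gives log2 fold changes of mean TPM plus 1 and q-values whose test is not stated. The 14 genes with no length have no TPM and took 0.920% of all counts.

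Counts were rounded and tested with edgeR 4.0.16 in R 4.3.3, in a single model of the 4 groups and all 12 libraries. It used TMM scaling, filterByExpr (105 genes removed) and the robust quasi-likelihood F test, with Benjamini-Hochberg adjustment over 4865 genes in each of 5 comparisons. The steps of the model were also run on counts simulated with the same dispersion for all genes and no replicate structure. That run does not bear on how the calls depend on single libraries. A standard error is the absolute log2 change over the square root of the F statistic. The labels call the libraries of a group independent biological replicates. The genes and lists were chosen with earlier results of these data known, so no test was made over a list.

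Named genes are, within each subunit, the 4 largest and 4 smallest changes at LC 24 h against HC 0 h and the 3 highest TPM at HC 0 h, then genes not called at LC 24 h, the 6 largest changes among those called at HC 24 h against HC 0 h, S27A and L10, and the gene removed by the filter. In the other lists they are the 2 largest rises and 2 largest falls. All other genes were named after their values were seen, among them L5, L38, CMT080C, the stalk proteins and the groups by place. Names are those of the best Arabidopsis match, a similarity and not a measured function.

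The 21 alternatives changed the scaling (relative log expression, upper quartile), the filter (none, or 10 CPM in 3 libraries), the samples (each library left out, or only the groups compared) and the model (a replicate block, DESeq2 1.42.0, and limma 3.58.1 on log2 TPM with a pseudocount of 1 or 0.1 for genes of at least 1 TPM in 3 libraries).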

Additional observations from a re-analysis of the deposited data

How the results depend on the processing

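No call of a tested ribosomal gene reversed under any of the 21 alternatives. Of the calls, 55 of 55 at LC 24 h against HC 0 h were made under all of them, 52 of 54 at HC 24 h against LC 24 h, 46 of 51 at LC 24 h against LC 3 h, 30 of 40 at LC 3 h and 5 of 23 at HC 24 h against HC 0 h. Leaving out each library gave 30 to 50 ribosomal genes at LC 3 h, 55 at LC 24 h, 5 to 38 at HC 24 h against HC 0 h, 53 to 56 at HC 24 h against LC 24 h and 49 to 52 at LC 24 h against LC 3 h. Over all genes the HC 24 h against HC 0 h count of 684 ranged from 189 to 1198, with 304, 368 and 358 without HC 0 h replicates 1, 2 and 3, 189 and 301 without HC 24 h replicates 2 and 3, and 1198 without LC 3 h replicate 1. DESeq2 called 1071 genes there, 34 of them ribosomal. With only the groups compared in the model, 35 ribosomal genes were called in place of 23. The cause of these shifts was not tested.

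The log2 change of the 40S to 60S ratio at LC 24 h (-0.21) was -0.23 from means of log2(TPM + 1). From summed CPM it was -0.17. Those means count S29, removed by the filter and at most 1.28 TPM, as much as any other gene, whereas the summed CPM leave it out. The cause of the differences was not tested. With a library left out the change of -0.21 became -0.22 to -0.20, while the change at HC 24 h against HC 0 h (-0.06) was -0.09 to -0.02.

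Scaling moved the split of all called genes. At LC 3 h against HC 0 h 53.4% were higher, but 39.5% with upper-quartile scaling and 32.2% with limma on log2(TPM + 1). At LC 24 h against LC 3 h 44.5% were higher, but 54.6% with upper-quartile scaling and 72.1% with limma. At HC 24 h 51.5% were higher against HC 0 h and 49.7% against LC 24 h, but 26.6% and 27.6% with limma.

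The labels do not say that a replicate number follows a culture. Of 18 same-numbered pairs of libraries 15 correlated above 0.1 in their deviations from the group means, the lowest r was -0.08, and 10 of the 12 libraries correlated best with their own number. With the replicate block 1251 genes were called at HC 24 h against HC 0 h, 29 of them ribosomal, and no other count of calls moved by more than 1.5 times. S29 had at most 2 reads in any library and was not tested.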
